A study of Homo sapiens with 4 samples.

Results

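The comparison concerned genes that moved in the same direction when hnRNPK, PTBP1 or the RNA targeted by si-lncRNA-LBCS was knocked down in UM-UC-3 cells. UM-UC-3 is a permanent line grown from a human bladder cancer. The 4 groups had 1 library each, and all were taken 48 h after transfection with 75 nM siRNA by Lipofectamine RNAiMAX. The control cells received 1 control siRNA, and each knockdown received a pair of siRNAs against its target. The paper describes the control and si-hnRNPK cells only, so the use of the libraries labelled si-lncRNA-LBCS (named the LBCS-labelled library from here on) and si-PTBP1 rests on the labels. For each knockdown the difference from control was taken in log2(CPM + 1), where CPM is the reads of a gene per 1000000 reads of its library. The shared change of a gene is the smallest of its 3 differences when all 3 have the same sign, and 0 otherwise. Of 27629 genes listed in any of the 4 tables, 24039 were listed in all 4. Of these, 14150 reached 1 CPM in at least one library and were examined.

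hnRNPK and PTBP1 are nuclear RNA-binding proteins that bind pyrimidine-rich RNA, and both take part in splicing, RNA stability and translation. LNC-LBCS is a long noncoding RNA transcribed antisense to coding genes. MKI67 encodes Ki-67, which coats mitotic chromosomes, is made in cycling cells and is lost from resting cells, and is therefore a common marker of proliferation.

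The siRNA sequences are shown because a change shared by all 3 knockdowns comes from cells that received different siRNAs. Capitals mark the bases that pair with bases 2 to 8 of the guide strand, the seed through which an siRNA can also bind other transcripts.
control: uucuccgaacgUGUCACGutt
si-hnRNPK 1: ggguuguagagUGCAUAAatt
si-hnRNPK 2: gccuccaucuaGAAGAGAutt
si-lncRNA-LBCS 1: gcugcucauuuGUCUGAUctt
si-lncRNA-LBCS 2: ggugguagucaACACAAAutt
si-PTBP1 1: gccucaacgucAAGUACAatt
si-PTBP1 2: cccucauugacCUGCACAatt
The 6 knockdown siRNAs had 6 distinct seeds, and 0 of them occurred in the control siRNA. All 3 differences were taken from the same control library, so a feature of that library and an effect common to the knockdowns cannot be told apart.

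HNRNPK, the target of si-hnRNPK, was at 783 CPM in control, 188 in si-hnRNPK, 808 in the LBCS-labelled library and 656 in si-PTBP1. Its level in si-hnRNPK was 24.0% of control (95% exact Clopper-Pearson interval 23.5 to 24.5). PTBP1, the splicing repressor targeted by si-PTBP1, was at 280 CPM in control, 253 in si-hnRNPK, 327 in the LBCS-labelled library and 89.7 in si-PTBP1. Its level in si-PTBP1 was 32.0% of control (interval 31.0 to 33.1). Both protein-coding targets were thus lowest in the library labelled for them. The siRNAs of the third knockdown matched LNC-LBCS (ENSG00000228412), which was at 1.79 CPM in control, 3.43 in si-hnRNPK, 1.47 in the LBCS-labelled library and 3.82 in si-PTBP1. The LBCS-labelled library had 103 reads of it against 110 in control, which was 81.8% of control with an interval of 61.9 to 108. The labels list qPCR levels against control, under the name of an inhibition rate, of 0.08 for si-hnRNPK, 0.13 for the LBCS-labelled library and 0.1 for si-PTBP1. The lower bound of 61.9% for LNC-LBCS lies far above its listed qPCR level, so depth was not the limit. Those of HNRNPK (23.5%) and PTBP1 (31.0%) also lie above theirs, and reads over a whole gene and qPCR are unlike measures. The interval for LNC-LBCS includes an unchanged level, so the reads of the target do not show the knockdown that this label states. Every direction given below for that library, and every shared change, is subject to this. The intervals cover counting error only.

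The 4 libraries held 54301152 to 70232674 reads on listed genes, at which 3 reads correspond to 0.0427 to 0.0552 CPM. The reference genes fixed as a list, 12 in all, had shared changes of at most 0.26 in size (HPRT1). Among markers of the cell line, the keratin KRT8 was at 63.0 to 94.8 CPM and vimentin, a mesenchymal filament protein, at 1417 to 2343 CPM. The urothelial markers UPK2 and GATA3 stayed below 1 CPM in every library. FOXA1 and PPARG, of the same epithelial and urothelial list, were low but above 1 CPM, at 1.67 to 2.53 and 2.33 to 5.19 CPM. Of the other cell type markers, 1 of 10 leukocyte, 1 of 6 endothelial and 0 of 5 erythroid genes were examined, and their sums ranged from 0.427 to 2.95 CPM, 9.03 to 41.8 CPM and 0.0552 to 0.232 CPM. The endothelial sum was mostly TIE1, at 29.6 CPM in control, 41.0 in si-hnRNPK, 8.39 in the LBCS-labelled library and 9.35 in si-PTBP1.

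Few genes moved together by a large amount. All 3 knockdowns were lower than control by at least 1, a 2-fold difference, for 10 genes (0.0707% of those examined) and higher by at least 1 for 16 genes (0.113%). At a shared change of at least 0.5, 130 genes were lower (0.919%) and 292 were higher (2.06%). With no threshold, 3033 genes were lower in all 3 (21.4%), 3482 were higher in all 3 (24.6%), and 7635 were mixed. Taken one at a time, si-hnRNPK was lower by at least 1 for 3.8% of genes and higher for 3.42%, the LBCS-labelled library for 0.961% and 0.36%, and si-PTBP1 for 0.601% and 2.86%.

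**Figure D1:**
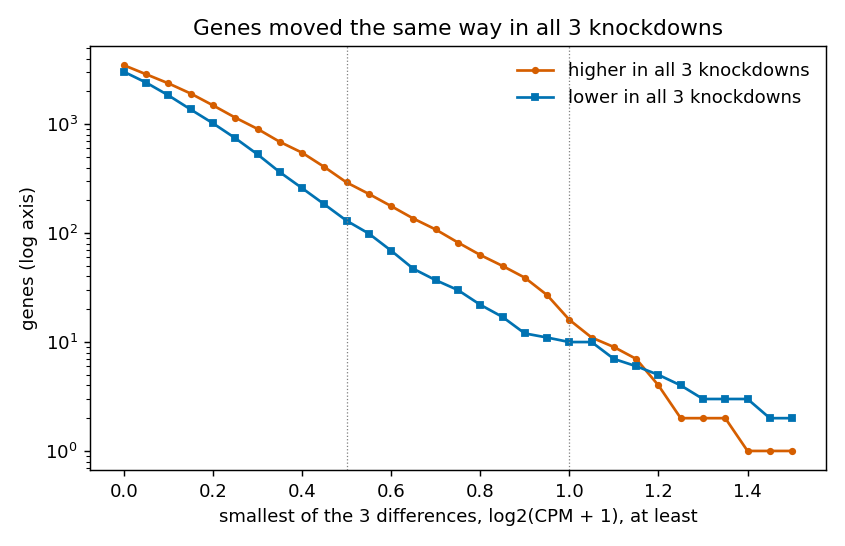
Number of genes (vertical, log axis) whose 3 differences all have the same sign and are each at least the value on the horizontal axis, in log2(CPM + 1), for genes higher (circles) and lower (squares) in all 3 knockdowns. At the dotted lines the counts were 292 and 130 (0.5) and 16 and 10 (1), and the higher genes outnumbered the lower ones at both.

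A gene must pass in all 3 knockdowns, so leaving one out can only keep or raise the counts. Without si-hnRNPK, si-lncRNA-LBCS or si-PTBP1, the lower genes at 0.5 numbered 231, 277 and 655 and the higher genes 539, 735 and 414. At 1 they numbered 33, 16 and 44 lower and 29, 102 and 24 higher. Among the 292 higher genes the smallest difference was that of the LBCS-labelled library for 174, and among the 130 lower genes it was spread over si-PTBP1 (54), si-lncRNA-LBCS (44) and si-hnRNPK (32). The distance between the largest and smallest difference of a gene had a median of 0.39 for the 130 lower genes and 0.40 for the 292 higher ones, against 0.49 over all genes examined. These genes were chosen on the same differences, so the medians are no evidence of agreement between knockdowns. In the highest library 76 of the lower and 209 of the higher genes reached 10 CPM. When the 3 knockdowns were treated as replicates, and the lone control was assumed to vary like them, in edgeR's quasi-likelihood test, 0 genes passed an adjusted p of 0.05 (0% of 14150), and the lowest adjusted p was 0.381. At an unadjusted p under 0.05 that edgeR test counted 454 genes (3.21%), 146 lower and 308 higher. With 1 control among 4 libraries an exact permutation test of a single gene cannot go below p = 0.25, so the values that follow are descriptions of these libraries.

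Among genes with a symbol, MMP9 and GFPT2 had the largest shared falls. MMP9, a secreted protease that cleaves basement membrane collagen, was at 50.3 CPM in control, 11.3 in si-hnRNPK, 5.25 in the LBCS-labelled library and 4.89 in si-PTBP1. All 3 knockdowns lay far below control, and the shared change was -2.06. MMP9 (ENSG00000100985) lies on the plus strand of chromosome 20 from 46008908 to 46016561, by identifier in GENCODE release 29 on GRCh38. GFPT2, which makes glucosamine 6-phosphate at the entry of the hexosamine pathway, was at 80.2 CPM in control, 22.1 in si-hnRNPK, 26.5 in the LBCS-labelled library and 29.3 in si-PTBP1. Its 3 knockdown values lay close together, at a shared change of -1.42, so that no single knockdown stood out.

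COL17A1 and KRT15 followed. COL17A1, a collagen of the hemidesmosome that anchors basal cells to the basement membrane, was at 44.9 CPM in control, 17.97 in si-hnRNPK, 18.2 in the LBCS-labelled library and 11.5 in si-PTBP1, a shared change of -1.26. KRT15, a keratin of basal epithelial cells, was at 15.4 CPM in control, 3.57 in si-hnRNPK, 3.73 in the LBCS-labelled library and 6.12 in si-PTBP1, a shared change of -1.20. Other markers of basal cells, TP63 and KRT5, were under 1 CPM in control and so could not show a fall of this size. TP63, a transcription factor of basal epithelium, was at 0.34 CPM in control, 2.50 in si-hnRNPK, 0.51 in the LBCS-labelled library and 2.37 in si-PTBP1, and the basal keratin KRT5 was below 1 CPM in every library. Of the 6 examined genes of the epithelial and urothelial list, which holds neither COL17A1 nor KRT15, 1 passed 0.5, the nuclear receptor PPARG, and it was higher (2.33 CPM in control and 3.74, 4.10 and 5.19 in si-hnRNPK, si-lncRNA-LBCS and si-PTBP1). DOCK10, an exchange factor for small GTPases, was at 32.7 CPM in control and at 8.01, 11.3 and 13.9 in the same order of knockdowns (shared change -1.18). CD82, a tetraspanin of the cell surface, was at 59.5 CPM in control and at 27.4, 15.1 and 22.7 (-1.09). VEPH1 was at 143 CPM in control and at 67.4, 56.1 and 64.4 (-1.08). PNP, a purine salvage enzyme, was at 112 CPM in control and at 53.5, 42.4 and 38.2 (-1.05). Scaled by median of ratios, CD82, VEPH1 and PNP lay at -0.98, -0.97 and -0.94, short of 1 in size.

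Below the threshold of 1 the largest shared falls were those of SNORA23 and SNORA22, small nucleolar RNAs that guide pseudouridylation of other RNAs. SNORA23 was at 82.9 CPM in control, 25.9 in si-hnRNPK, 29.7 in the LBCS-labelled library and 42.3 in si-PTBP1 (shared change -0.95). SNORA22 was at 38.8 CPM in control and at 13.2, 12.9 and 19.7 in the same order (-0.94). Such RNAs usually lie inside other genes, and without the counting rule their reads cannot be told apart from those of a host transcript. They were the 2 small nucleolar RNAs among the 130 lower genes, of 53 examined. FRMD4A followed at 101 CPM in control and 48.7, 54.2 and 47.6 (-0.88), then MKI67 (-0.88) and ANTXR1, a receptor of the cell surface, at 21.2 CPM in control and 9.89, 11.2 and 10.7 (-0.87). Nearest on the other side of the threshold, among genes with a symbol and at 10 CPM or more in the highest library, were PNP, VEPH1, CD82, DOCK10 and KRT15.

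Of the 10 genes lower by at least 1, SBSN, a secreted protein of stratified epithelium, was under 10 CPM, at 5.41 in control and 1.90, 0.63 and 1.82 in the knockdowns. The largest shared change of all belonged to ENSG00000184779, which has no symbol in the tables used here and had 630 reads in control, 3 in si-hnRNPK and 0 in the other two. On the log2(CPM + 1) scale it came to -3.42, a value that depends on the pseudocount. Whether its reads were shared with a near-identical copy was not tested, so this value is uncertain.

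**Figure D2:**
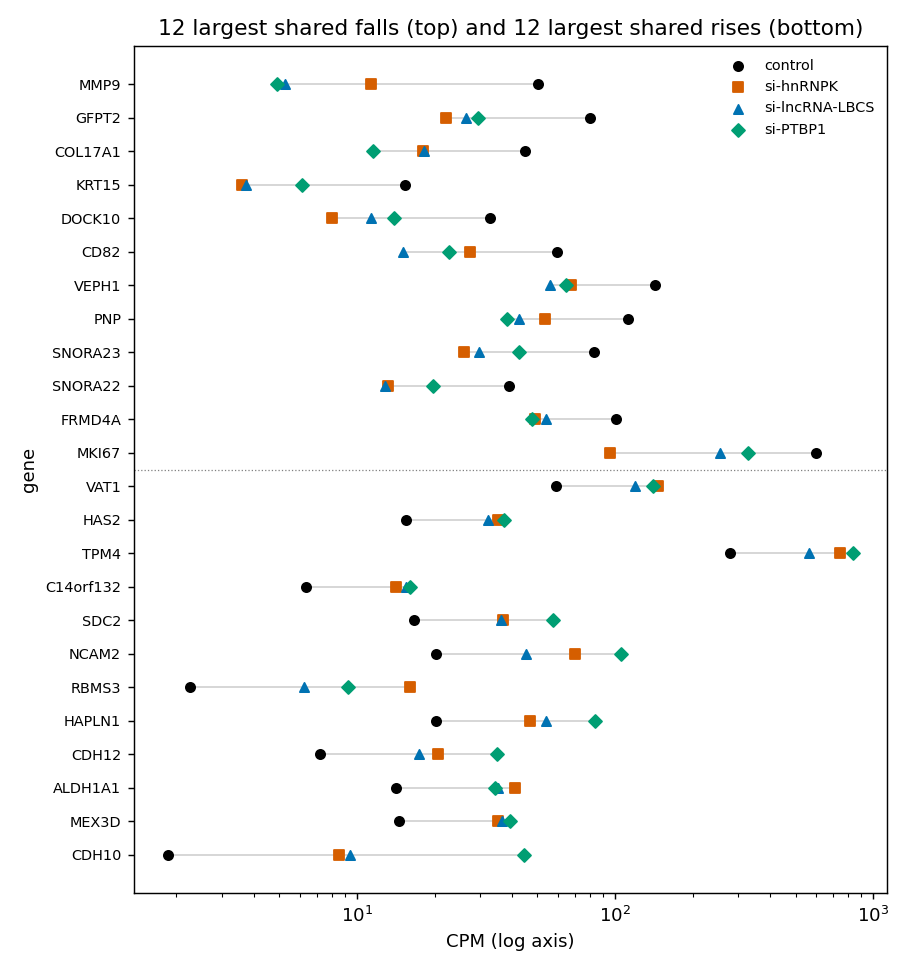
CPM (horizontal, log axis) in each of the 4 libraries for the 12 genes with the largest shared fall (above the dotted line) and the 12 with the largest shared rise (below it), 1 point per library and a grey line over the range. Control lies to the right of all 3 knockdowns in the upper genes and to the left of all 3 in the lower genes, as the choice of the genes requires, and the distance differs most between knockdowns for CDH10 and MKI67.

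The largest shared rise among genes with a symbol was that of CDH10. CDH10, a classical cadherin mostly of neural tissue, was at 1.86 CPM in control, 8.54 in si-hnRNPK, 9.37 in the LBCS-labelled library and 44.4 in si-PTBP1. It was low in control and highest in si-PTBP1, where it was 2390% of control (interval 1980 to 2910), and its shared change was 1.74. CDH12, another classical cadherin, was at 7.19 CPM in control, 20.7 in si-hnRNPK, 17.4 in the LBCS-labelled library and 34.9 in si-PTBP1, with a shared change of 1.17. CDH10 (chromosome 5, 24487100 to 24644978) and CDH12 (chromosome 5, 21750673 to 22853622) lie on the same arm and the same strand. NCAM2, a neural cell adhesion molecule of the immunoglobulin family, was at 20.3 CPM in control and at 70.1, 45.3 and 105 in si-hnRNPK, si-lncRNA-LBCS and si-PTBP1 (shared change 1.12). SDC2, a heparan sulfate proteoglycan, was at 16.6 CPM in control and at 36.9, 36.1 and 57.7 (1.08).

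The cadherins and protocadherins, a family chosen after these values were seen, held 29 examined genes outside the Y chromosome. In all 3 knockdowns 19 were higher and 1 was lower, beside 24.6% higher and 21.4% lower of all examined genes. The lower one was CDH4, at 17.7 CPM in control and at 7.77, 13.1 and 9.99 in si-hnRNPK, si-lncRNA-LBCS and si-PTBP1 (-0.40). Of the 19 higher genes, 8 were under 1 CPM in control and were examined only because a knockdown was higher. With a mean of at least 1 CPM over the 4 libraries required instead, a filter chosen after the values were seen, 23 genes were left. Of these, 14 were higher in all 3, a share not counted over all genes under that filter. By at least 0.5, 6 were higher (26.1%, beside 2.16% of the 13250 genes that met the same filter). That mean includes the knockdowns, so PCDHA13, PCDHGB1 and PCDHB3, under 1 CPM in control, still passed and are among the 14. The 6 were each above 1 CPM in control. Before that filter 7 were higher by at least 0.5, which besides CDH10 and CDH12 were PCDH10, PCDH15, PCDHB5, PCDH9 and CDH6. PCDH10 was at 11.3 CPM in control and at 23.0, 28.6 and 64.6, and PCDH15 was at 57.4 CPM in control and at 119, 99.5 and 187. CDH6, at 0.05 CPM in control, was the one lost to the filter. CDH2, or N-cadherin, lay just under the threshold at 47.1 CPM in control and 78.6, 66.9 and 71.7. No test was made of a family picked in this way.

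Other rises included genes of the matrix and cytoskeleton. HAPLN1, which links hyaluronan to proteoglycans, was at 20.3 CPM in control and at 46.9, 54.0 and 83.3 (shared change 1.17). HAS2, the enzyme that makes hyaluronan, was at 15.5 CPM in control and at 35.1, 32.3 and 37.1 (1.01). Both hyaluronan genes were thus above control in each knockdown. TPM4, a tropomyosin of actin filaments, was the most abundant gene of the group, at 279 CPM in control and 742, 565 and 835 (1.01). TUBA1A, an alpha tubulin, lay just outside the threshold at 83.6 CPM in control and 481, 165 and 194 (0.97).

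The remaining named rises were the following. ALDH1A1, which oxidizes retinaldehyde to retinoic acid, was at 14.2 CPM in control and at 41.0, 35.2 and 34.2 (1.22), and MEX3D, an RNA-binding protein, was at 14.6 CPM in control and at 35.2, 36.6 and 39.3 (1.22). In both genes each of the 3 knockdown values lay well above control. RBMS3, an RNA-binding protein, was at 2.26 CPM in control and at 16.0, 6.26 and 9.27 (1.15). C14orf132 was at 6.35 CPM in control and at 14.2, 15.5 and 16.1 (1.05), and VAT1 was at 58.9 CPM in control and at 147, 119 and 140 (1.01). By the same limits, nearest inside the threshold was the zinc finger gene ZNF616 (1.00), and nearest outside were IL1RAPL1 (0.99), GRIK2 (0.99), CSMD3 (0.98) and TMPRSS15 (0.98). The gene without a symbol with the largest rise was ENSG00000260512, at 2.93 CPM in control and 12.1, 9.31 and 9.84 (1.39).

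MKI67 was at 601 CPM in control, 95.2 in si-hnRNPK, 256 in the LBCS-labelled library and 326 in si-PTBP1. All 3 knockdowns lay below control, and si-hnRNPK lay well below the other two. The levels were 15.8% of control (interval 15.4 to 16.3) in si-hnRNPK, 42.5% (41.7 to 43.3) in the LBCS-labelled library and 54.2% (53.2 to 55.2) in si-PTBP1, and the intervals did not overlap. The shared change of -0.88 was set by si-PTBP1, and it became -1.01 when the libraries were scaled by median of ratios. In RNA from a whole culture, fewer cells with the transcript and less of it per cell cannot be told apart. MKI67 (ENSG00000148773) is on chromosome 10, minus strand, 128096659 to 128126385.

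Other cell cycle genes did not follow MKI67 to the same extent. Over all genes examined, 21.4% were lower in all 3, 24.6% were higher in all 3 and 2.98% passed 0.5, 0.919% as lower genes. Of the 96 S phase and G2/M genes examined, 56 were lower in all 3 knockdowns and 1 was higher in all 3, but 2 passed 0.5. These were MKI67 and CLSPN, an adaptor of the replication checkpoint, which was at 79.3 CPM in control, 24.5 in si-hnRNPK, 48.7 in the LBCS-labelled library and 50.4 in si-PTBP1 (shared change -0.64). The next was UBE2C, a ubiquitin-conjugating enzyme of mitosis, at -0.46. By the size of the fall MKI67 ranked 1 of 96 in si-hnRNPK, 1 in the LBCS-labelled library and 3 in si-PTBP1. The median differences of the 54 G2/M genes were -1.11 in si-hnRNPK, -0.05 in si-lncRNA-LBCS and -0.30 in si-PTBP1, and those of the 42 S phase genes were -0.84, -0.09 and -0.22. The medians over all genes were -0.10, -0.01 and 0.12, so the lists lay far below in si-hnRNPK, somewhat below in si-PTBP1 and close to it in the LBCS-labelled library.

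**Figure D3:**
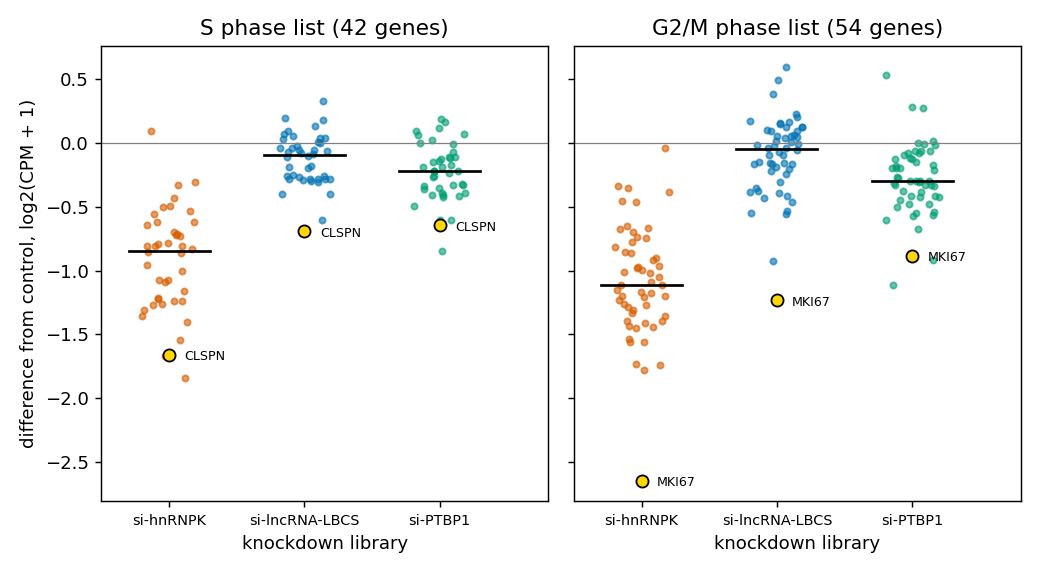
Difference from control in log2(CPM + 1) (vertical) of each S phase gene (left, 42 genes) and G2/M gene (right, 54 genes) in the 3 knockdown libraries, with 1 point per gene, a bar at the median and MKI67 and CLSPN as outlined points. The G2/M medians were -1.11, -0.05 and -0.30, and MKI67 lay below its list's median in each library.

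In related lists few or no genes passed 0.5. The shares over all genes examined were 21.4% lower in all 3, 24.6% higher in all 3 and 2.98% past 0.5. Of 13 mitotic kinesins 5 were lower in all 3 and 0 passed 0.5, and of 26 homologous recombination and Fanconi genes 16 were lower in all 3 and 0 passed 0.5. Of 15 replication-dependent histones 11 were lower in all 3, and H1-3, a linker histone, passed 0.5. It was at 482 CPM in control and 145, 325 and 249 in si-hnRNPK, si-lncRNA-LBCS and si-PTBP1. This list does not hold every histone gene. Outside it, H2BC18 also passed 0.5, at 453 CPM in control and 172, 293 and 273 (-0.63), and histones outside the list were not counted. Of 17 cell cycle transcription factors 6 were lower and 2 higher in all 3, with 0 past 0.5.

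The promoter of MKI67 is shown because cell cycle genes share short promoter elements. The window of RefSeq (GRCh38.p14) is 250 bases before the start on the minus strand, chr10:128126424-128126673, with matches to CCAAT or to TTTGAA, a cell cycle homology region (CHR) motif, on either strand in capitals.
MKI67 promoter: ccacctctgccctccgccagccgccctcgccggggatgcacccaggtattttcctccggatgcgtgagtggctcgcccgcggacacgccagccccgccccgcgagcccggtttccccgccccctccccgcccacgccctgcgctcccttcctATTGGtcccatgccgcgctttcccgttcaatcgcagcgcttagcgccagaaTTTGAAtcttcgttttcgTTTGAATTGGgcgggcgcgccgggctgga
Counted from the first base, ATTGG, the reverse complement of CCAAT, begins at positions 153 and 227 and TTTGAA at 204 and 222, where the last of each overlap. Of 77 cell cycle genes with a RefSeq promoter, 36 (46.8%) held TTTGAA or TTCGAA and 53 (68.8%) held CCAAT, beside 16.6% and 35.7% of all 27305 promoters in the table. Among the 10495 examined genes with a promoter the shares were 11.4% and 36.9%. These shares were counted in a longer window than the one shown, 250 bases before and 50 after the start. A match describes letters and not a site. The same count over the lower genes was not used, because fewer of them had a promoter than of all examined genes. The higher genes were not short of promoters in this way, but their count was left out with that of the lower ones. A promoter was in the table for 58.5% of the 130 lower and 76.4% of the 292 higher genes. The share was 74.2% for all examined genes and 80.2% for the cell cycle list.

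Across 35 lists of known function, 603 distinct genes were examined, and 19 of them passed 0.5 (3.15%), with 9 lower and 10 higher. This share lay close to the 2.98% of all examined genes that passed 0.5 in either direction, so the members named below are not a result about the lists. Without si-hnRNPK, si-lncRNA-LBCS or si-PTBP1 the number, which can only rise, was 37, 66 and 50. The heat shock list held 2 of the lower ones. HSPH1, a co-chaperone of HSP70, was at 126 CPM in control, 69.4 in si-hnRNPK, 68.6 in the LBCS-labelled library and 75.9 in si-PTBP1 (shared change -0.72). HSP90AA1, the inducible HSP90, was at 949 CPM in control and 596, 500 and 568 in the same order (-0.67). Of 11 heat shock genes 7 were lower in all 3 and 0 higher, with list medians of -0.65, -0.40 and -0.46 in si-hnRNPK, si-lncRNA-LBCS and si-PTBP1. Over all examined genes 21.4% were lower and 24.6% higher in all 3.

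The cholesterol list also held 2. FDFT1, or squalene synthase, was at 254 CPM in control and 142, 165 and 139 (-0.62), and NSDHL, an enzyme of late cholesterol synthesis, was at 38.6 CPM in control and 22.4, 22.5 and 20.7 (-0.75). Of the 20 genes of that list 7 (35%) were lower and 4 (20%) higher in all 3, beside 21.4% and 24.6% of all examined genes. The whole list thus did not move one way. In the immediate early list, FOSL1, an AP-1 subunit, was at 64.2 CPM in control and 18.8, 21.3 and 34.6 (-0.87). Another AP-1 subunit, FOSB, was higher from a control level of 0.26 CPM, at 8.47, 1.05 and 4.24 (0.70). VLDLR, a lipoprotein receptor placed in the stress response list, was at 22.2 CPM in control and 11.5, 12.6 and 9.72 (-0.76).

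The higher list members were TGFBR1, the type I TGF-beta receptor, at 25.3 CPM in control and 56.5, 57.6 and 47.8 (0.89), and ID2, an inhibitor of basic helix-loop-helix factors, at 16.2 CPM in control and 27.0, 34.2 and 32.5 (0.70). CTSB, a lysosomal cysteine protease, was at 307 CPM in control and 720, 513 and 565 (0.74). The fibrillar collagens COL5A1 and COL5A2 had shared changes of 0.63 and 0.68. Of 22 collagen, laminin and matrix genes 11 were higher in all 3 (50%, beside 24.6% of all examined genes). Lower in all 3 were 3 (13.6%, beside 21.4%). CRELD2 of the unfolded protein response (0.53), PPARG (0.51), and the low genes AKR1B10 (0.62) and CCL20 (0.73) completed the higher list members. CCL20 was at 0.36 CPM in control and 7.29, 1.25 and 1.44, and AKR1B10 was at 0.24 CPM in control and 1.53, 1.38 and 0.91.

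By their medians, the interferon-stimulated and cytokine lists moved strongly upward in si-hnRNPK only. Of 38 interferon-stimulated genes 13 were higher in all 3, with 0 past 0.5, and the list medians were 2.72 in si-hnRNPK, 0.00 in si-lncRNA-LBCS and 0.02 in si-PTBP1. Of 12 cytokine and NF-kB feedback genes 11 were mixed, with medians of 1.26, -0.76 and -0.19. Over all examined genes 21.4% were lower in all 3 and 24.6% higher. The lists that follow had smaller medians, given in the same order of knockdowns. Among 78 cytoplasmic ribosomal protein genes 24 were lower and 2 higher in all 3, with 0 past 0.5 and medians of 0.11, -0.02 and -0.34. Among 37 hnRNP and SR splicing regulators 13 were lower and 2 higher, with 0 past 0.5 and medians of -0.37, -0.10 and -0.03. Of 19 p53 targets 1 was lower and 5 were higher in all 3, again with 0 past 0.5 and medians of 0.14, -0.12 and 0.26.

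Some genes moved in opposite directions. At least 1 knockdown was higher and another lower, by at least 1 each, for 19 genes (0.134%), and by at least 0.5 each for 250 genes (1.77%). The 5 with the largest opposite movement were higher in si-hnRNPK and lower in the other two. OASL, an interferon-induced protein, was at 9.89 CPM in control, 45.7 in si-hnRNPK, 2.05 in the LBCS-labelled library and 1.21 in si-PTBP1. TRAF1, an adaptor of TNF receptor signalling, was at 34.2 CPM in control and at 106, 3.45 and 5.37. The chemokine CCL2 was at 68.8 CPM in control and at 320, 16.1 and 28.3. For each of them control lay between si-hnRNPK above and the other two knockdowns below.

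**Figure D4:**
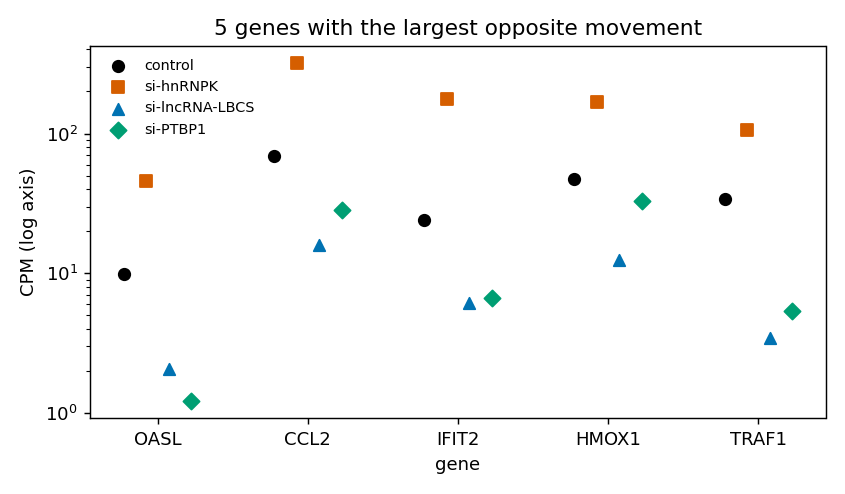
CPM (vertical, log axis) in the 4 libraries of the 5 genes with the largest opposite movement, with 1 point per library. For each gene si-hnRNPK was highest, control came next and the other two knockdowns were lowest.

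The genes higher in all 3 knockdowns by at least 0.5 had a greater median length than those lower in all 3 by at least 0.5. The 289 higher genes with a position in GENCODE release 29 had a median length from start to end of 39.4 kb, and 31.8% spanned 100 kb or more. The 118 lower genes had a median of 27.3 kb, with 12.7% at 100 kb or more. Over the 13739 examined genes with a position the median was 30.2 kb, with 18.8% at 100 kb or more. Length was not used to choose these genes. The filter of 1 CPM in at least one library let in higher genes under 1 CPM in control, such as CDH6 and FOSB. Lower genes could not enter that way, and lengths were not compared under another filter. Genes are not replicates, so no test is given. CDH12, RBMS3, PCDH15, IL1RAPL1 and CSMD3 were among the long ones.

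**Figure D5:**
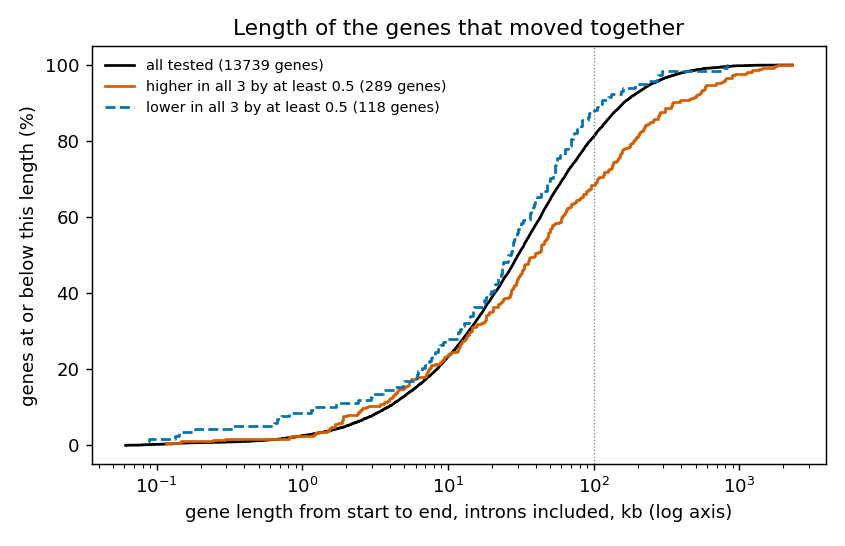
Cumulative percentage of genes (vertical) against gene length with introns in kb (horizontal, log axis) for all genes examined (solid black), genes higher in all 3 by at least 0.5 (orange) and genes lower in all 3 by at least 0.5 (dashed blue). Above 100 kb (dotted line) lay 31.8% of the higher genes, 12.7% of the lower ones and 18.8% of all.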

How the data were processed

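RNA-seq of UM-UC-3 cells was analysed in 4 libraries, 1 per group. The authors deposited CPM per Ensembl gene, and the submitters' processing notes name hg19. The aligner, counter and annotation are not given in the sources used here. The deposited CPM values were whole multiples of 1 read (within 0.01) for 100% of values, which gave the reads. Genes without reads carried a placeholder and were set to 0. Genes had to reach 1 CPM in some library. Differences were taken in log2(CPM + 1), on which low genes appear to change less than they do. The members and lists were chosen with earlier results of these data known. Named genes were MKI67, the targets, the reference genes, the 12 largest shared falls and rises with a symbol and 10 CPM in the highest library, the 5 with the largest opposite movement, 5 on each side of the threshold of 1, and up to 4 list members past 0.5 per list. Intervals are exact Clopper-Pearson. edgeR 4.0.16 (TMM, quasi-likelihood, Benjamini-Hochberg adjustment) was an alternative. Of 14150 examined identifiers 13261 had symbols. siRNAs were matched over 19 bases to GENCODE 29 transcripts. In simulated data with counting error only, 200 genes at 10 CPM or more in control were changed 4-fold among 14150, and 100% were recovered. This checks the computation and says nothing about spread between cultures.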

Additional observations from a re-analysis of the deposited data

Results flagged for a closer look

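With 1 library per group the difference between knockdowns could not be tested in these 5 genes, each of which moved up in si-hnRNPK and down in both other knockdowns. The value given is the smaller of the largest rise and the largest fall in log2(CPM + 1). It was 2.10 for OASL, 2.03 for CCL2, 1.81 for IFIT2, 1.79 for HMOX1 and 1.60 for TRAF1. IFIT2, an interferon-induced RNA-binding protein, was at 24.0 CPM in control, 178 in si-hnRNPK, 6.15 in the LBCS-labelled library and 6.71 in si-PTBP1. HMOX1, which breaks down haem, was at 47.7 CPM in control, 168 in si-hnRNPK, 12.5 in the LBCS-labelled library and 33.1 in si-PTBP1.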

How the results depend on the processing

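A pseudocount of 0.1 gave 27 lower and 89 higher genes at 1, and 260 and 547 at 0.5. It raises low genes by construction. A filter of 5 CPM gave 84 lower genes at 0.5. Scaling by median of ratios shifted si-hnRNPK and si-PTBP1 by -0.11 and 0.13 against control (log2), kept 7 of 10 lower and 14 of 16 higher genes at 1 and moved MKI67 to -1.01. A 1.5-fold threshold gave 83 lower and 187 higher genes. The mean of the 3 differences, which needs no agreement, gave 40 and 137 genes at 1, 857 and 1142 at 0.5, 172 list genes and -1.59 for MKI67. Leaving out each knockdown gave 16 to 44 lower and 24 to 102 higher genes at 1, 231 to 655 and 414 to 735 at 0.5, 37 to 66 list genes and -0.88 to -1.23 for MKI67. Adding an edgeR adjusted p of 0.05 left 0 genes of each kind. All 24 most-changed genes kept a shared change of 0.5 under median-of-ratios scaling. The mean and the settings without a library cannot make a shared change smaller. There were no replicates, so spread between cultures is unknown, and the cause of these differences was not tested. No paired analysis was possible because each group had 1 library.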
